A study of Sus scrofa with 8 samples.

Results

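Bidirectional promoters were taken as pairs of RefSeq protein-coding genes of the pig genome (Sscrofa11.1, chromosomes 1 to 18 and X) that lie on opposite strands and point away from each other, with their transcription start sites (TSSs) at most 1000 bp apart. The rule used gene positions alone, without any peak. It found 845 pairs with 1686 different genes, 4 of which belonged to 2 pairs, among 19487 protein-coding genes. They were compared with 11466 protein-coding genes that had no other annotated TSS within 10 kb, called lone genes below. The chromatin data were ChIP-seq peak lists from pig embryonic fibroblasts (PEFs), cells grown untreated from 35-day-old fetuses of the Large White breed. Antibodies against H3K4me3, H3K27ac and CTCF were used, with 2 replicates each, making 6 libraries. The labels do not say that the replicates came from separate cultures or fetuses, so the errors below measure the spread between libraries and may be technical.

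A bidirectional promoter is a stretch of DNA from which RNA polymerase starts in both directions and makes a messenger RNA on either side. Such promoters are often CpG islands and are known for serving housekeeping genes, among them many genes of DNA repair and mitochondrial function. H3K4me3 marks nucleosomes beside start sites, H3K27ac marks active promoters and enhancers, and CTCF is a zinc finger protein that binds a long motif and takes part in chromatin loops.

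The lists held between 37932 and 81164 peaks per library. Every value below is a presence, width or fold enrichment of a called peak. Reads per peak were not given in the files, so the depth behind a single promoter is unknown and no counting interval is given. H3K4me3 fold enrichment was about 2 times higher in replicate 1 than in replicate 2 at the members, with medians of 58.6 and 29.8, and levels were therefore compared within a library. All 10 fibroblast genes of the marker list had an H3K4me3 peak within 1 kb of the TSS in both libraries, among them COL1A1 (52.0- and 27.6-fold) and, with the lowest values, FN1 (3.13- and 5.38-fold). The markers of blood (PTPRC), endothelium (PECAM1 and CDH5) and liver (ALB) had none, whereas EPCAM and CDH1 of epithelium, MYOD1 of muscle and SOX2 of neural and pluripotent cells had one. The part of other cells in the results was not tested.

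The sequences between the TSSs of 7 pairs are shown first, because the pairs differ in the marks they carry. All are the plus strand of Sscrofa11.1 as given by RefSeq, read from the base after the TSS of the minus-strand gene (named first) to the base before the TSS of the plus-strand gene. Capitals mark exact matches, on either strand, to the ETS core, which is CCGGAAG. They also mark the GC box, for which the letters GGGCGG were searched, the CCAAT box under its own letters, and the TATA box, for which the search used TATAAA. The first 3 pairs are textbook bidirectional promoters that carried H3K4me3 and H3K27ac over both TSSs. They lie at chr1:23676-23826 (TBP-PSMB1), chr12:3785830-3785996 (AFMID-TK1) and chr3:112753122-112753342 (HADHB-HADHA).
TBP-PSMB1: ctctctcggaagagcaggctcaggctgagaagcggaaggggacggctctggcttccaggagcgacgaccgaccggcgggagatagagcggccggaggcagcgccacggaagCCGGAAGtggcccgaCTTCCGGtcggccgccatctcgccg
AFMID-TK1: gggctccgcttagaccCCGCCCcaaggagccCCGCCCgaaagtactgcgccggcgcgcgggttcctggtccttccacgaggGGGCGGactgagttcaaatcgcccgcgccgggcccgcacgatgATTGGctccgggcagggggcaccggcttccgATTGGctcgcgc
HADHB-HADHA: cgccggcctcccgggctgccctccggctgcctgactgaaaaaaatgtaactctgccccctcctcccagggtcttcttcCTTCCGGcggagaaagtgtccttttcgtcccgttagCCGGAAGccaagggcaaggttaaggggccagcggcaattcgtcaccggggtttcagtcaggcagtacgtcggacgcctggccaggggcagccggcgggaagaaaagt
The next 2 pairs, at chr3:96616225-96616303 (ABCG8-ABCG5) and chr1:126620360-126620467 (DUOXA2-DUOX2), had no peak of any mark in any library.
ABCG8-ABCG5: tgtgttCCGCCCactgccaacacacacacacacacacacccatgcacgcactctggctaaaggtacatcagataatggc
DUOXA2-DUOX2: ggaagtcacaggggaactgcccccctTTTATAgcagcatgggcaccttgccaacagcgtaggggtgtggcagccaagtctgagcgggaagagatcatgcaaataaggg
The last 2 pairs, at chr4:129395791-129396050 (SH3GLB1-ODF2L) and chr4:124367613-124367777 (RPL5-EVI5), had a CTCF summit between the TSSs in both libraries. Of the textbook pairs above, AFMID-TK1 also had such a summit (12.7- and 14.2-fold), and HADHB-HADHA had a CTCF peak with its summit outside the gap (4.28- and 4.37-fold).
SH3GLB1-ODF2L: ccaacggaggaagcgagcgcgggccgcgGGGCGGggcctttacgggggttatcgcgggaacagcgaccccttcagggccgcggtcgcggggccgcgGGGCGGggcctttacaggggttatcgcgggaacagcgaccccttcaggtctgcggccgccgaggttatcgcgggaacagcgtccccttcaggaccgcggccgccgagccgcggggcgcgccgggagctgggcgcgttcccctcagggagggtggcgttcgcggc
RPL5-EVI5: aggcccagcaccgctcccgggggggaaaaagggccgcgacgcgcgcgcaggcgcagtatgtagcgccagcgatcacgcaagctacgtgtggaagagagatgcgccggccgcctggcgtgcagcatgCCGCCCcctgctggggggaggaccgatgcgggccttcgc
The gap of SH3GLB1-ODF2L was 75.4% G+C with 41 CpG dinucleotides, and that of RPL5-EVI5 was 72.1% G+C with 21. Both gaps without peaks had 2 CpG dinucleotides each, at 53.2% G+C (ABCG8-ABCG5) and 56.5% G+C (DUOXA2-DUOX2). Of the 3 textbook pairs, the gap of TBP-PSMB1 had 70.2% G+C and 19 CpGs, that of AFMID-TK1 72.5% and 22, and that of HADHB-HADHA 62.9% and 17. These 3 do not stand for all textbook pairs, whose marks are given below. The gaps of ZAR1L-BRCA2, METTL23-JMJD6, SIRT3-PSMD13, PDHX-APIP and TSC2-NTHL1 held no match to these motifs, while other textbook gaps did. That of FEN1-TMEM258 had 7 CpGs in 106 bp and that of TAP1-PSMB9 had 8 in 143 bp. The gaps without peaks were 79 bp (ABCG8-ABCG5) and 108 bp (DUOXA2-DUOX2) long, and CpG counts were not adjusted for length.

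The 845 pairs had TSSs a median of 115 bp apart (quartiles 60 and 224 bp, range 1 to 939 bp). They were found on every chromosome examined, from 27.6 pairs per 1000 protein-coding genes on chromosome X and 28.1 on chromosome 17 to 57.1 on chromosome 12. In the 300 bp from 250 bp before to 50 bp after the TSS, the members had a median of 64.3% G+C, against 57.3% at lone genes. CpG-rich promoters, with at least 55% G+C and an observed over expected CpG ratio of at least 0.6, made up 80.0% of the members, 42.2% of lone genes and 46.3% of all protein-coding genes. The CpG-rich promoters of both sets were therefore also compared on their own.

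The ETS core, bound by ETS family activators, was present in 28.4% of the members' promoters, 8.18% of lone genes and 11.0% of all promoters of the same length. Among CpG-rich promoters the shares were 32.1% and 14.6%. The letters GCGCATG of the NRF1 motif, bound by a factor of mitochondrial and housekeeping genes, were in 10.4% of the members, 3.43% of lone genes and 4.34% of all promoters. A TATA box was in 5.28% of the members, 12.3% of lone genes and 10.8% of all promoters, and among CpG-rich promoters in 2.67% of the members and 3.86% of lone genes. The CCAAT box was in 40.8%, 34.9% and 35.3%, and the cyclic AMP response element (CRE, searched as TGACGTCA) in 4.86%, 2.08% and 2.26%. The E-box CACGTG was in 10.4% of the members, 7.62% of lone genes and 7.93% of all promoters. Among CpG-rich promoters, members and lone genes had an E-box in 11.8% and 10.7%, a CCAAT box in 38.1% and 32.3%, a CRE in 5.63% and 3.47% and the NRF1 letters in 11.12% and 5.68%. A GC box was in 73.5% of the members against 48.0% of lone genes and 50.7% of all promoters, but among CpG-rich promoters the order turned, with 81.5% and 85.6%. The longer form GGGGCGGGG, which contains a GC box, did the same, with 29.2%, 20.9% and 21.1% of all promoters and, among CpG-rich ones, 33.6% of the members and 41.0% of lone genes. These matches are letters in a window and were not tested as binding sites.

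H3K4me3 was nearly universal at the members. Of 1686 genes, 1647 (97.7%) had an H3K4me3 peak within 1 kb of the TSS in both libraries, against 7335 of 11466 lone genes (64.0%) and a background of 68.9% of all protein-coding genes. By library the shares were 97.9% and 98.0% at the members and 64.7% and 64.9% at lone genes, a difference of 33.1 percentage points ± 0.0456 (SD, n = 2). A peak of one gene can also lie in the window of its partner. The downstream sides, which do not overlap, are given further on, but 1 wide peak can still reach both of them. Among CpG-rich promoters both sets were nearly all marked, with 99.6% and 99.4% of the members and 96.5% and 96.1% of lone genes, and the difference was 3.20 points ± 0.187. Without LOC symbols, which RefSeq gives to genes with no assigned name, it was 25.1 points ± 0.0481.

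H3K27ac followed at almost as many members. Both libraries had a peak at 1604 members (95.1%), against 53.9% of lone genes and a background of 60.7%. The shares by library were 95.2% and 95.8% at the members and 54.7% and 56.1% at lone genes, which gave a difference of 40.1 points ± 0.513. Unlike for H3K4me3, a wide difference was left among CpG-rich promoters, where 96.7% and 97.1% of the members and 80.3% and 82.1% of lone genes had H3K27ac, 15.7 points ± 0.994 apart. Of genes with H3K4me3 in the same replicate number, 97.0% and 97.5% of the members also had H3K27ac, against 81.1% and 82.9% of lone genes (difference 15.3 points ± 0.933; 13.4 ± 1.21 among CpG-rich promoters).

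CTCF set the members apart much less. A CTCF peak in both libraries was found within 1 kb of 343 members (20.3%), against 16.7% of lone genes and a background of 17.9%, a share near the background. The library shares of 21.2% and 25.8% at the members were 4.37 points ± 0.465 above those of lone genes, 17.1% and 21.1%, and 1.96 points ± 0.0758 above them without LOC genes. Among CpG-rich promoters the direction reversed, with 21.7% and 26.5% of the members and 23.8% and 29.9% of lone genes, a difference of -2.69 points ± 0.901. Where CTCF was present it was weaker at the members, with median folds of 14.4 and 14.2 against 17.3 and 16.7 (difference -2.70 ± 0.280; -1.15 ± 0.542 among CpG-rich promoters).

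**Figure D1:**
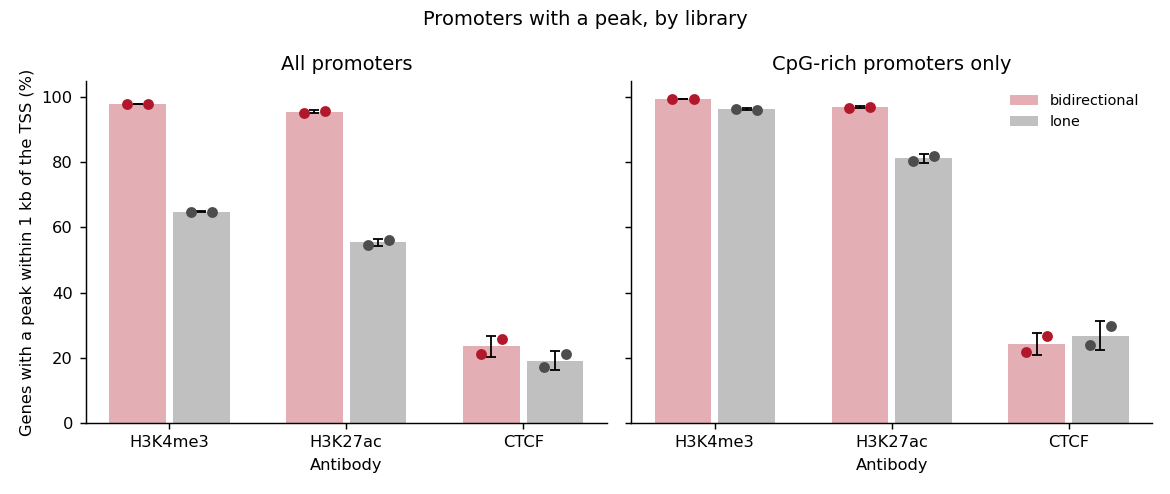
Share of genes with a peak within 1 kb of the TSS (y axis, percent) for each antibody, at bidirectional (red) and lone (grey) promoters, for all promoters (left) and CpG-rich ones (right). Bars are means of 2 libraries, error bars are SD and points are the libraries; H3K4me3 lies above 97% at the members in both panels and rises at lone genes from below 65% to above 96%, while CTCF changes its order.

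For these and the other differences between members and lone genes, 11 in all, the set labels were swapped within libraries in an exact permutation test (2-sided). With 2 libraries this exact permutation test cannot go below p = 0.5, which every difference had, raw and Benjamini-Hochberg adjusted. The differences in share, width and fold exceeded their SD between libraries, and their order was the same in both libraries.

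Peaks at the members were also stronger and wider. The median H3K4me3 fold enrichment was 58.6 and 29.8 at members with a peak and 49.7 and 23.7 at lone genes (difference 7.53 ± 1.97), and that of H3K27ac was 18.7 and 22.1 against 15.2 and 17.5 (difference 4.06 ± 0.886). H3K4me3 peaks had median widths of 3314 and 3486 bp at the members and 2544 and 2728 bp at lone genes, 764 bp ± 8.49 apart. H3K27ac peaks of the members were 2771 and 2792 bp wide, those of lone genes 2284 and 2229 bp (difference 525 bp ± 53.7). Among CpG-rich promoters the differences in width were 570 bp ± 26.5 for H3K4me3 and 374 bp ± 24.7 for H3K27ac. In most pairs 1 peak lies over both TSSs, so the same fold and width are counted for both partners. Such a peak can have its summit on the flank of either gene. Part of the differences in fold and width may therefore be built into the measure, and they are not a property of each gene alone.

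The additional width lay upstream, on the side of the partner gene. An H3K4me3 peak over the TSS of a member reached a median of 1699 and 1776 bp upstream, against 720 and 774 bp at lone genes. Downstream, into the gene itself, it reached less far at the members (1543 and 1631 bp) than at lone genes (1815 and 1933 bp), a difference of -287 bp ± 21.6. H3K27ac behaved alike, with 1408 and 1435 bp upstream against 715 and 705 bp, and 1254 and 1278 bp downstream against 1582 and 1560 bp. The strongest H3K4me3 peak had its summit downstream of the TSS at 49.5% ± 0.172 of members with a peak and at 88.4% ± 1.52 of lone genes. Upstream of a member lies the downstream side of its partner, so a peak over both TSSs is counted from both genes. The similar reach to either side and the 49.5% of summits downstream at the members are therefore largely built into the measure.

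**Figure D2:**
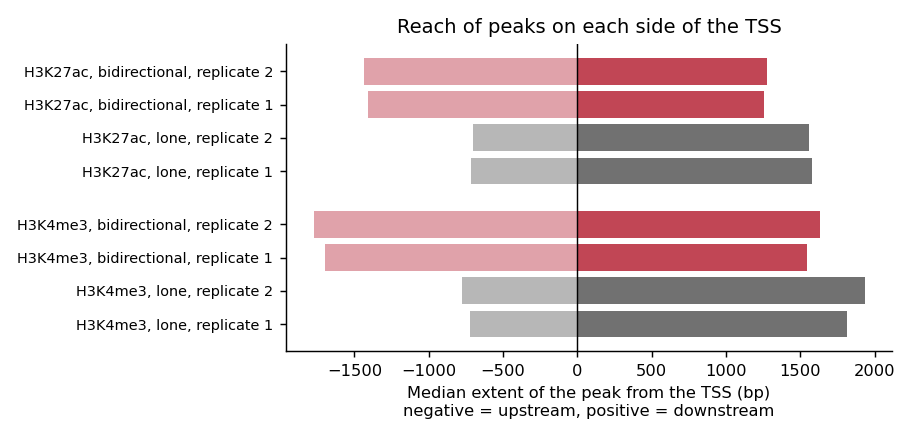
Median distance in bp (x axis) that a peak over the TSS reaches upstream (negative, pale) and downstream (positive, dark), for each library and mark. Bidirectional promoters (red) reach about as far to either side, with 1699 bp upstream and 1543 bp downstream for H3K4me3 replicate 1, whereas lone genes (grey) reach 720 bp and 1815 bp. A peak over both TSSs of a pair is counted from both genes, which makes the sides alike.

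The profile around the TSS was also read base by base, and here too a peak over both TSSs is counted from both genes. At 1 kb upstream, 87.5% and 88.6% of the members were covered by an H3K4me3 peak, against 17.1% and 19.7% of lone genes. At 1 kb downstream the values were 83.2% and 84.9% against 55.7% and 56.9%. By 2000 bp downstream, cover at the members (27.4% and 31.1%) was below that of lone genes (29.9% and 33.0%). H3K27ac covered 71.4% and 71.5% of the members at 1 kb upstream.

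**Figure D3:**
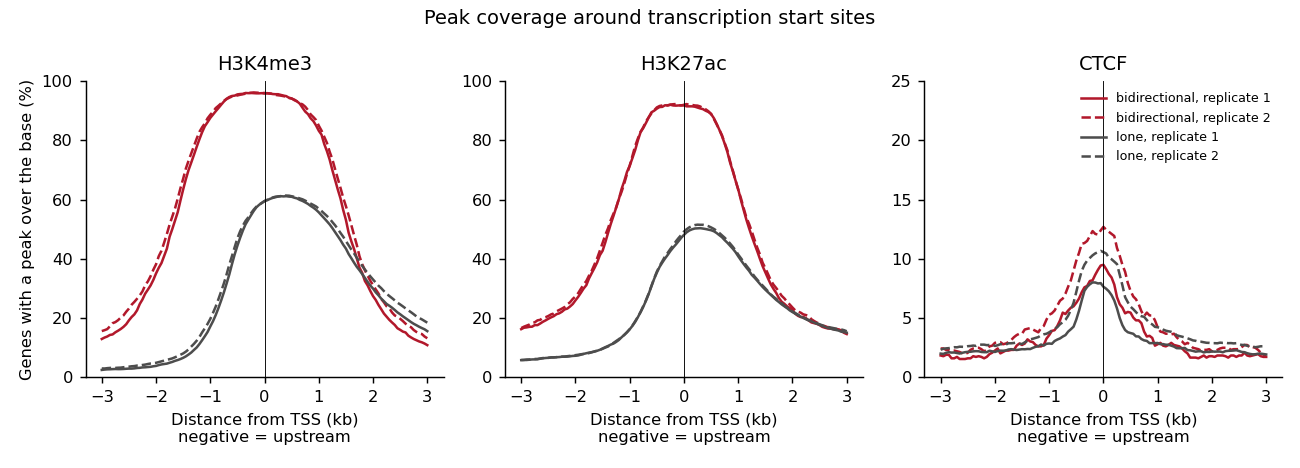
Percent of genes with a peak over each base (y axis) by distance from the TSS in kb (x axis, upstream negative), for bidirectional (red) and lone (grey) promoters in replicate 1 (solid) and replicate 2 (dashed). H3K4me3 and H3K27ac form nearly symmetrical plateaus at the members and lean downstream at lone genes. At the members a peak over both TSSs is counted from both genes. The CTCF axis ends at 25%.

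Within the pairs, H3K4me3 almost always took in both genes. The first 1 kb downstream of each TSS, windows that do not overlap between partners, both held H3K4me3 in 801 of 845 pairs (94.8%) in both libraries. An overlap of 1 bp was enough, so 1 peak over both TSSs marks both sides, and 798 pairs had such a peak in both libraries. The median gap was 115 bp, and H3K4me3 peaks of lone genes reached a median of 720 and 774 bp upstream. The measure therefore does not separate the partners. In 19 pairs the same single side was marked in both libraries, and in 15 pairs neither side was. H3K27ac was on both sides of 765 pairs, on 1 side of 27 and on neither side of 33. Counted by gene, H3K4me3 lay on the downstream side of 96.6% and 96.7% of the members and 64.2% and 64.3% of lone genes, 32.4 points ± 0.0456 apart, and of CpG-rich promoters 3.24 points ± 0.298 apart. For H3K27ac these shares were 93.4% and 93.7% against 53.6% and 54.9% (difference 39.2 points ± 0.752; 15.4 ± 1.06 among CpG-rich promoters).

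A single H3K4me3 peak ran over both TSSs in 94.7% and 95.3% of pairs (798 pairs in both libraries), and a single H3K27ac peak in 90.4% of pairs in each library. The share varied with the distance between the TSSs. For H3K4me3 it was 97.7% ± 0.368 at 1 to 100 bp, 95.6% at 101 to 250 bp and 95.7% ± 1.23 at 251 to 500 bp, and 77.7% ± 0.956 among the 74 pairs at 501 to 1000 bp. H3K27ac fell to 65.5% ± 0.956 in these 74 pairs. The spanning H3K4me3 peak widened from a median of 3212 bp ± 102 in the closest pairs to 4280 bp ± 3.89 in the farthest. This rise is partly built into the measure, because a spanning peak has to cover the gap and pairs not spanned are left out. Among all pairs with an H3K4me3 peak, median widths were 3136 and 3279 bp at 1 to 100 bp. They were 3692 and 3798 bp at 501 to 1000 bp, a smaller rise. Just inside the limit of the rule, at 501 to 1000 bp, 98.0% and 98.6% of member genes had H3K4me3 within 1 kb, and just outside it, at 1001 to 2000 bp, 78.4% of 190 genes had it in each library. A step at this limit is built into the measure, because up to 1000 bp a peak at one TSS also falls in the window of its partner. The downstream sides of partners do not overlap, but 1 peak can reach both. H3K4me3 was found there at 89.2% of genes just inside in each library and at 68.9% and 67.9% just outside. Both sides were marked in 79.7% of the pairs 501 to 1000 bp apart.

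The strongest H3K4me3 summit fell between the TSSs in 1.45% and 1.21% of pairs with a peak, where the gap made up 8.41% of the searched window. The summit lay instead on the minus-strand gene in 46.9% and 49.0% of pairs and on the plus-strand gene in 51.7% and 49.8%. H3K27ac summits lay in the gap in 7.19% and 5.80% of pairs, where the gap was 8.34% and 8.31% of the window. The strongest CTCF summit lay there in 15.0% and 15.6% of pairs with a CTCF peak, where the gap was 9.90% and 9.56%. Peaks were taken by overlap with the window and their summits can lie outside it, so these window shares are only a rough comparison. Among pairs with a peak and a gap of 501 to 1000 bp, the strongest H3K4me3 summit lay in the gap in 8.22% ± 1.94. For H3K27ac this share was 21.0% ± 3.07 and for CTCF 29.0% ± 4.18, the latter from 23 and 25 pairs. A longer gap takes up more of the searched window, so the window shares above, which pool all distances, do not apply to this group.

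**Figure D4:**
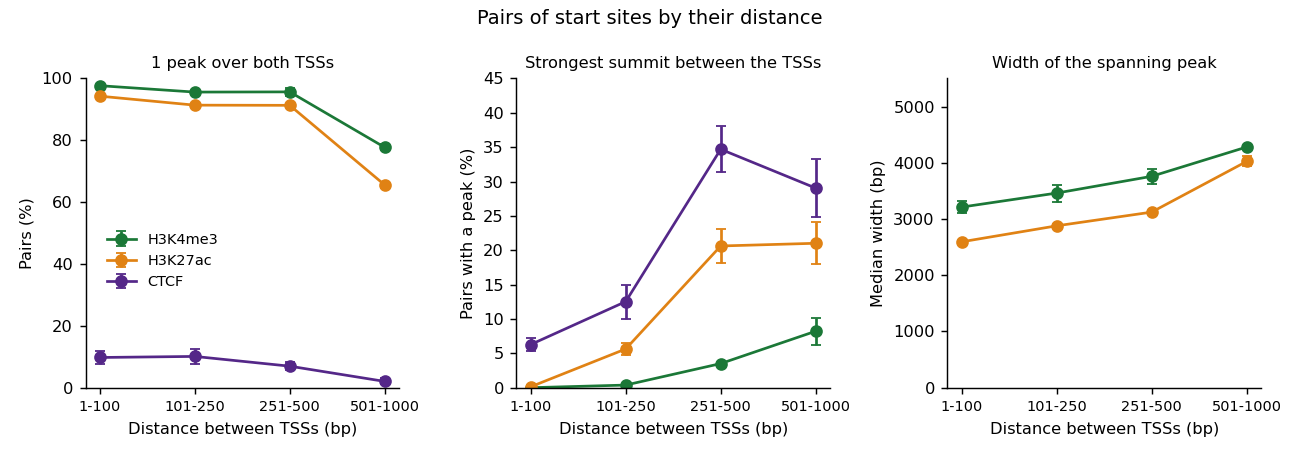
Pairs grouped by the distance between their TSSs in bp (x axis), with the share spanned by 1 peak (left), the share of pairs with a peak whose strongest summit lies between the TSSs (middle) and the median width of the spanning peak in bp (right). Points are means of 2 libraries with SD; spanning drops in the last group to 77.7% for H3K4me3 and 65.5% for H3K27ac, and the middle panel keeps CTCF above H3K27ac and H3K27ac above H3K4me3.

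The arms of a spanning peak differed in length, and mostly in the same way in both libraries. In spanned pairs the longer arm of the H3K4me3 peak was a median of 1.44 times the shorter one in each library, and the same gene had the longer arm in both libraries in 710 of 798 pairs (89.0%). For H3K27ac this held in 662 of 755 pairs (87.7%). The H3K4me3 summit itself kept its place (minus-strand gene, gap or plus-strand gene) in 601 of 827 pairs (72.7%), the H3K27ac summit in 719 of 806 (89.2%) and the CTCF summit in 175 of 179 (97.8%).

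The marks of the pairs were also described by the letters around their midpoint. With an ETS core in the 300 bp around the midpoint (246 pairs), 99.6% and all of the pairs had an H3K4me3 peak and 99.6% in each library had H3K27ac. Of the 599 pairs without it, 97.3% had H3K4me3 in each library and 93.8% and 94.5% had H3K27ac. Median H3K4me3 folds were 59.7 and 31.3 with the ETS core and 57.7 and 29.1 without. For CTCF the median folds were 11.2 and 9.16 with it and 14.9 and 16.8 without. All 43 pairs with a CRE had both histone marks in both libraries. Of the 802 pairs without it, 97.9% and 98.0% had H3K4me3 and 95.3% and 95.8% had H3K27ac, so the shares were close. Of the 49 pairs with a TATA box 93.9% had each mark. Among the 796 pairs without it, 98.2% and 98.4% had H3K4me3 and 95.6% and 96.1% had H3K27ac. CpG-rich midpoints (666 pairs) carried H3K4me3 at 99.7% and 99.5%, the other 179 pairs at 91.6% and 92.7%. These are descriptions with no test, and the features overlap.

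All 17 pairs of a list of 34 textbook pairs that met the rule were spanned by 1 H3K4me3 peak in both libraries and carried H3K27ac. The other 17 did not meet the rule in this annotation. TBP-PSMB1 joins the TATA-binding protein to a proteasome subunit, and had H3K4me3 at 82.5- and 49.0-fold in peaks of 5281 and 6094 bp, H3K27ac at 26.3- and 29.2-fold and no CTCF. HSPD1-HSPE1, the mitochondrial chaperonin and its partner, had TSSs 521 bp apart under H3K4me3 peaks of 6822 and 7577 bp at 46.1- and 29.1-fold. HADHB-HADHA encodes both subunits of the mitochondrial trifunctional protein, which breaks down long fatty acids. Its H3K27ac peak was the widest of the 17, at 11361 and 10771 bp with 31.2- and 36.8-fold, and its summit lay between the TSSs.

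DNA repair and replication genes made up several of these pairs. MCM4-PRKDC, of the replicative helicase and the DNA-dependent protein kinase, had the highest H3K4me3 of the 17 in replicate 1 at 86.1-fold, but 31.0-fold in replicate 2. WRN-PURG, with the Werner helicase, had 69.5- and 44.99-fold. FEN1-TMEM258, with the flap endonuclease, had the highest H3K27ac of the 17, 42.0- and 45.6-fold, with its summit between the TSSs. ZAR1L-BRCA2, with the recombination protein BRCA2, had the lowest H3K4me3 of the 17, 38.3- and 17.2-fold, in the narrowest peaks (1752 and 1945 bp). TSC2-NTHL1, a growth regulator and a base excision glycosylase 40 bp apart, had 52.7- and 25.4-fold.

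The textbook pairs not described so far had H3K4me3 between 40.9- and 76.1-fold in replicate 1 and between 17.5- and 35.5-fold in replicate 2. PDCD10-SERPINI1 was the lowest of these in both libraries, at 40.9- and 17.5-fold. METTL23-JMJD6 was the highest in replicate 1 (76.1-fold), and SIRT3-PSMD13, a mitochondrial deacetylase and a proteasome subunit 34 bp apart, in replicate 2 (35.5-fold). TRMT2A-RANBP1 had 71.3- and 24.7-fold with H3K27ac at 10.4- and 17.7-fold. PDHX-APIP had H3K27ac over 8495 and 8478 bp at 27.7- and 33.5-fold, and MRPL35-IMMT, both of mitochondrial proteins, at 14.7- and 20.8-fold.

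CTCF was present in both libraries at 6 of the 17. TAP1-PSMB9, the antigen peptide transporter and an immunoproteasome subunit, had the highest CTCF at 28.5- and 33.9-fold. AFMID-TK1, with thymidine kinase, had a CTCF summit inside the gap at 12.7- and 14.2-fold. METTL23-JMJD6 had 11.2- and 10.2-fold, MRPL35-IMMT 5.25- and 6.78-fold and HADHB-HADHA 4.28- and 4.37-fold. In HSPD1-HSPE1 (4.43-fold) and TSC2-NTHL1 (3.39-fold) only replicate 2 had a CTCF peak.

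The 5 named pairs with the highest mean H3K4me3 over both libraries were chosen by that value, in which replicate 1 weighs more because of its higher folds. Their order differed between libraries, with NOP9-DHRS1 first in replicate 1 and MUT-CENPQ first in replicate 2. NOP9-DHRS1, with a ribosome biogenesis factor, had 96.9- and 42.7-fold. PCID2-CUL4A, with a ubiquitin ligase scaffold, had 95.2- and 43.8-fold, and ENOPH1-HNRNPDL, with an RNA-binding protein, 88.5- and 48.8-fold. MUT-CENPQ (methylmalonyl-CoA mutase and a centromere protein) had 84.9- and 49.7-fold, and CTU2-RNF166 92.3- and 41.7-fold. Their H3K27ac ranged from 12.5- to 34.9-fold over both libraries, on both sides of the median of the members. Across pairs with a peak in both libraries, fold enrichment had a Spearman's rho between replicates of 0.537 for H3K4me3 (827 pairs), 0.914 for H3K27ac (806 pairs) and 0.934 for CTCF (179 pairs), as a description over promoters of the same libraries.

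Among the widest spanning H3K4me3 peaks were those over MLLT11-CDC42SE1 (8656 and 13207 bp) and SETD1B-RHOF (10456 and 10732 bp). SETD1B is itself an H3K4 methyltransferase. Their fold enrichments, 47.7 and 38.6, and 57.2 and 18.2, were below those of the 5 strongest pairs in replicate 1.

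No H3K4me3 peak lay near either TSS of 15 pairs in either library, and 13 of these had no H3K27ac either. Only 6 of their 30 genes had a CpG-rich promoter, against 81.5% of the genes of the 824 pairs with H3K4me3 within 1 kb of both TSSs. Many genes of the 5 named ones with the shortest distance are known from other tissues. ABCG8-ABCG5 encodes both units of the sterol exporter of liver and intestine, DUOXA2-DUOX2 the hydrogen peroxide generating oxidase of thyroid and epithelia with its maturation factor, and MAP6-MOGAT2 a neuronal microtubule protein and an enzyme of intestinal fat absorption. These 3 pairs had no peak of any mark. MMRN2-SNCG, of an endothelial matrix protein and gamma-synuclein, had weak H3K27ac (2.81- and 2.48-fold), and RSPH14-RAB36 had 2.52- and 3.59-fold.

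H3K4me3 without H3K27ac was found at 18 pairs, of which 10 had 2 named genes. By promoter they were CpG-rich in 30 of 36 genes (83.3%), unlike the pairs without H3K4me3. PSD-FBXL15 had H3K4me3 at 83.1- and 27.4-fold over 4412 and 4422 bp, above the median of the members in replicate 1 and below it in replicate 2. TMOD2-LYSMD2, with a tropomodulin of neurons, had 53.9- and 19.6-fold, and BOLL-PLCL1, with an RNA-binding protein of germ cells, 41.2- and 18.1-fold. SOWAHB-SEPT11 had 34.0- and 17.3-fold. RPGR-TSPAN7 on chromosome X, with a protein of photoreceptor cilia and a tetraspanin, had 22.9- and 12.7-fold.

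The 19 pairs with H3K4me3 on the downstream side of a single gene had TSSs a median of 551 bp apart, and 4 of their 38 promoters (10.5%) were CpG-rich. In the 5 pairs named here the peak still lay within 1 kb of both TSSs, and the statements concern the downstream sides. In ABHD16A-LY6G6F, 762 bp apart, the peak (58.8- and 27.01-fold) lay on the side of the lipase gene ABHD16A and not on that of LY6G6F. In CHTOP-S100A13, 769 bp apart, the side of the messenger RNA export gene CHTOP was marked at 56.3- and 34.9-fold. In PIGC-C9H1orf105 the side of PIGC, of the GPI anchor pathway, was marked at 64.5- and 38.2-fold. The downstream side of COLCA2 was marked at 31.9- and 11.8-fold and that of COLCA1 was not. In LRRC63-LCP1, 893 bp apart, the peak of 17.8-fold in each library reached the side of LCP1, an actin-bundling protein known from leukocytes, but not that of LRRC63, and in replicate 1 its summit lay between the TSSs. This pair had no H3K27ac.

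A CTCF summit lay between the TSSs in 3.43% and 4.26% of pairs, and in 27 pairs in both libraries. In these 27 the TSSs were a median of 342 bp apart, but a longer gap has more room for a summit. All 27 had H3K27ac in at least 1 library, which is near the 95.5% and 96.0% of all pairs by library. SH3GLB1-ODF2L, with the membrane-shaping protein endophilin B1, had the strongest by the mean of both libraries, 38.4- and 54.1-fold, inside an H3K4me3 peak of 37.2- and 16.0-fold. RPL26-NDEL1 had CTCF at 38.6- and 48.5-fold and RPL5-EVI5 at 34.0- and 37.3-fold, each with a ribosomal protein gene. EIF5B-TXNDC9, with a translation initiation factor, had 30.04- and 44.3-fold in a gap of 932 bp, and CDHR4-FAM212A 28.0- and 43.6-fold. In all 5 the H3K4me3 peak ran over both TSSs in both libraries, with the CTCF summit inside it. The letters AGGGGGC, part of the CTCF motif, were searched after the gap sequences above had been seen. They were present around the midpoint of 9 of the 27 pairs (33.3%), 18.5% of the other 818 pairs and 16.2% of all promoters of the same length. The window of all promoters was placed by the TSS and not by a midpoint. The gap of AFMID-TK1 shown above, also one of the 27 pairs, holds these letters, and that of RPL5-EVI5 holds them on the other strand. Their choice was therefore not independent of the 27 pairs.

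Functional groups were read from lists of gene symbols. DNA repair and replication had 38 of 129 genes (29.5%) at bidirectional promoters, against 8.65% of all protein-coding genes. The mitochondrial ribosome had 17 of 73 (23.3%), aminoacyl-tRNA synthetases 8 of 34 (23.5%), oxidative phosphorylation 13 of 69 (18.8%), the proteasome 8 of 48 (16.7%) and RNA polymerases with Mediator 9 of 58 (15.5%). Spliceosome genes (5 of 47, 10.6%), zinc finger genes (27 of 289, 9.34%) and numbered transmembrane proteins (29 of 236, 12.3%) were nearer to the share of all genes, and solute carriers were below it (16 of 350, 4.57%). None of 6 collagen IV genes and none of 4 core histone genes met the rule.

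All these listed members had H3K4me3 in both libraries, and all but 1 transmembrane gene had H3K27ac in both, where 97.7% and 95.1% of all members did. The marks were not confined to members. Beside the 38 members among 129 DNA repair and replication genes, 85 others had H3K4me3 and 84 had H3K27ac in both libraries. For the mitochondrial ribosome (17 members of 73) these counts were 54 and 54, and for solute carriers (16 of 350) 235 and 189. The median H3K4me3 fold of the DNA repair and replication members was 58.8 and 31.0, that of the mitochondrial ribosome 61.7 and 34.6 and that of the tRNA synthetases 60.0 and 35.7, beside 58.6 and 29.8 for all members. Among mitochondrial ribosome genes, MRPL10 had 88.2- and 45.5-fold and MRPL18 49.0- and 31.2-fold. The genes MRPS11 and MRPL46 share a promoter, with 75.9- and 37.5-fold and H3K27ac at 37.2- and 49.8-fold. ORC3, of the origin recognition complex, and the mitochondrial arginyl-tRNA synthetase gene RARS2 both had 50.1- and 27.9-fold. Of zinc finger genes, 5 pairs had both partners on the list, among them ZNF10-ZNF891 and ZNF263-ZNF200. Since partners are counted with the same peaks, members of a list that share a promoter are not separate measurements.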

How the data were processed

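ChIP-seq was carried out in PEFs with antibodies against H3K4me3, H3K27ac and CTCF, 2 replicates each (6 libraries). Per the submitters' processing notes and the methods, the authors mapped reads with Bowtie2 to Sscrofa11.1 (tool versions not given in the sources used here), discarded duplicate fragments and, library by library, called peaks with MACS2. Each deposited peak has a score, its fold enrichment as a ratio to the control signal, and the −log10 of its p-value and q-value. Scores and p-values were not used further. The highest q-value in the lists was between 0.0432 and 0.0499, above the limit in the methods, and the lists were analysed as deposited, so that weak peaks are included. Inputs (2 samples) were not analysed here.

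TSSs were taken from RefSeq annotation release 106 as the outermost 5′ base of each gene, so alternative TSSs inside a gene were not counted. A gene had a peak when 1 bp or more of the peak lay within 1 kb of its TSS, and the strongest such peak gave fold and width. Lone genes had no TSS of any of 28077 annotated genes and pseudogenes within 10 kb. Positions, sequences and motifs were computed with Python 3.11.15, pandas 2.3.3, numpy 2.4.6 and pysam 0.24.0, and figures with matplotlib 3.10.9. Shares and medians were computed per library and given as mean ± SD (n = 2), with an exact permutation test that swaps the labels within libraries. Replicates of a mark were not paired with other marks except by their number in the share of H3K4me3 promoters with H3K27ac.

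Pairs were named if neither symbol begins with LOC: textbook pairs that met the rule, the 5 of highest H3K4me3, the 5 closest without H3K4me3, the 5 farthest with a single marked side, the 5 of highest CTCF in the gap, the 5 of highest H3K4me3 without H3K27ac and the 3 widest. Listed genes were named in list order, and ORC3, RARS2, MRPS11, MRPL46, MRPL10, ZNF10-ZNF891 and ZNF263-ZNF200 were chosen after their values were seen. Of the pairs this rule gives, 2 are not reported here. The members and lists were chosen with earlier results of these data known. Alternatives were a stricter q-value, peaks shared by replicates, summits in place of overlap, a window of 500 bp, pairs at most 500 bp apart, lone genes defined by protein-coding neighbours, leaving out LOC genes, CpG-rich promoters only, leaving out each replicate and a test without pairing. The extents up- and downstream and the CTCF letters were added after the data were seen.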

Additional observations from a re-analysis of the deposited data

How the results depend on the processing

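Each difference between bidirectional and lone promoters was recomputed under 11 alternatives, and each share of pairs under those that apply to it. Of these values, 130 kept their direction or stayed within the SD between libraries, 2 reversed and 3 moved further. Some of the 130 could not come out otherwise. The test without pairing leaves each of the 11 differences unchanged. Leaving out a replicate cannot move a share of pairs beyond the SD between 2 libraries. The difference in the share of genes with H3K4me3 on the downstream side came to -2.46 points when a summit had to lie inside the window (-4.91 in replicate 1 and 0.00099 in replicate 2), a value limited by the measure, because the 1 summit of a spanning peak can lie on the side of only 1 partner. The CTCF share difference reversed to -2.69 points among CpG-rich promoters. The share of pairs spanned by 1 H3K4me3 peak moved from 95.0% to 96.6% in pairs at most 500 bp apart, 96.1% without LOC genes and 98.9% among CpG-rich promoters. The difference in H3K4me3 share fell from 33.1 to 3.20 points among CpG-rich promoters and that in H3K27ac share from 40.1 to 15.7 points. Without LOC genes the CTCF share difference was 1.96 points, against 4.37 with them. The cause of these changes among CpG-rich promoters and without LOC genes was not tested. For H3K27ac on the downstream side the same summit setting, with the same limit, gave 4.10 points.

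Leaving out a replicate kept every direction. The H3K4me3 share difference was 33.07 or 33.13 points, that of H3K27ac 39.8 or 40.5 and that of CTCF 4.04 or 4.69. The H3K4me3 fold difference ranged from 6.14 to 8.92. With no replicate block (2 against 2 unpaired values), the H3K4me3 share difference was the same 33.1 points and the exact permutation test cannot go below p = 0.33, so neither test can pass a threshold of 0.05 here. Since reads per peak are not known, a promoter without a peak is only one where none was called.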

Other observations

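Divergent gene pairs outside the rule were also read. Where the 5′ ends of divergent protein-coding genes overlapped by up to 1000 bp (421 pairs, 841 genes), 96.4% and 96.0% of genes had H3K4me3 within 1 kb of the TSS, 91.9% and 92.9% had H3K27ac and 23.5% and 29.0% had CTCF. These shares were close to those of the pairs 1 to 1000 bp apart for both histone marks, and in both classes a peak of one gene can lie in the window of its partner. With TSSs 2001 to 5000 bp apart (301 pairs), 72.5% and 72.1% of genes had H3K4me3, and with 5001 to 10000 bp (548 pairs) 71.8% and 71.2%, near the 68.9% of all protein-coding genes with a peak in both libraries. CTCF peaks of genes 1001 to 2000 bp apart (95 pairs) had median folds of 22.1 and 26.3, against 14.4 and 14.2 in the pairs at most 1000 bp apart. H3K4me3 widths of those 95 pairs, 3465 and 3572 bp, were close to the 3314 and 3486 bp of the bidirectional promoters, whereas pairs 2001 to 5000 bp apart had 2497 and 2659 bp. These classes were chosen after the values of the bidirectional promoters were seen, and their differences were not tested.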
